A study of Mus musculus with 12 samples.

Results

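Long non-coding RNAs (lncRNAs) are transcripts that are processed much like messenger RNAs but are not known to be translated. The set described here holds 202 lncRNAs that were well measured in mouse liver. They were chosen by their counts: a row typed as lncRNA in the deposited table was taken when it had at least 20 raw counts in each of 12 libraries, and Gm26917, a transcript related to ribosomal RNA, was left out. The 202 are part of 9963 lncRNA rows, of which 5632 had 0 counts in every library and 9760 fell below the minimum in at least 1 library. The whole table counts 55421 genes. Because every library had to pass, an lncRNA that nearly disappears at 1 temperature cannot be a member, and the levels of the members describe the choice.

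All mice were labelled wild type and carried an orthotopic tumour of E0771 cells, a mouse mammary carcinoma line. RNA came from liver at day 21, homogenised as tissue, from 3 groups of 4 libraries whose mice were first acclimatised in climate chambers. The 6 °C group holds libraries 1 to 4, the 22 °C group libraries 5 to 8 and the 29 °C group libraries 9 to 12. Housing at 6 °C forces a mouse to make heat, 22 °C is ordinary animal housing, and 29 °C lies near thermoneutrality. The tumour is thus shared by all 3 groups, and the labels name both Balb/C and C57Bl6/J mice without tying a library to a strain. Nor do they state whether each library comes from its own animal: a p-value here reflects spread among the libraries, which may be technical.

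Some lncRNAs reside in nuclear structures: Neat1 builds paraspeckles, and Malat1 is found in nuclear speckles. Others silence genes near them on the chromosome, as Xist does on the inactive X, or exist mainly as the precursor of a microRNA or of small nucleolar RNAs in their introns. Many lie antisense to a protein-coding gene or inside one of its introns, and for most of these no role in liver is established.

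Total counts lay between 7615585 (library 2) and 19001126 (library 11), and 15006 genes entered the tests. Levels below are in CPM (counts-per-million), with library sizes scaled by the trimmed mean of M values, as mean ± SD over the 4 libraries of a temperature. Fold changes are on the log2 scale, and each p-value is two-sided, from edgeR's quasi-likelihood test with Benjamini-Hochberg adjustment over all 15006 genes; a gene was called when its adjusted p was under 0.05. Libraries 1, 7, 8 and 9 held 11.8 to 17.1 CPM of H2-Ea-ps, a histocompatibility class II gene that is silent in mice of the C57BL/6 background, and the other 8 libraries held 0 counts of it. The labels do not mark these 4 libraries, and they fall unevenly on the temperatures (1, 2 and 1), so each comparison is also given with the presence of H2-Ea-ps counts as a covariate. The 5 hepatocyte markers summed to 66924 to 78044 CPM in these 4 libraries and to 77728 to 173738 CPM in the other 8. Of 4 genes listed as mammary or tumour epithelial markers only Krt8 passed the filter on low counts. Whether its reads came from liver or tumour cells was not tested.

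Of the 202 members, 196 had an identical versioned identifier in GENCODE vM21 (mouse build GRCm38). There 66 were intergenic (lincRNA), 42 antisense, 41 processed transcripts, 39 sense intronic, 7 from a bidirectional promoter and 1 sense overlapping. By position, 54 lay inside or over a protein-coding gene on its strand, 60 over one on the opposite strand, 11 started within 1 kb of a coding gene's start without overlap, and 71 had no such neighbour. Exons of 88 members overlapped exons of another gene, 78 of them on the opposite strand and 16 on the same strand. How the counting treated strand is not given in the sources used here, so for these members reads of the 2 genes cannot be told apart, and for sense intronic members reads of the unspliced host transcript cannot be told apart from the lncRNA. The median exonic length was 3258 bases (399 to 93092). One member, Ifi30 (ENSMUSG00000031838.8), carries the symbol of a gene for a lysosomal thiol reductase although the table types it as lncRNA.

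The minimum of 20 counts corresponded to 1.05 CPM in library 11 and to 2.63 CPM in library 2, on unscaled totals, and library 2 held the lowest count for 111 members. Just inside the limit, 11 members had 20 counts in their lowest library, among them Mir17hg, Snhg6, Dubr and Gm10644. Just outside it, 7 rows that the deposited table types as lncRNA had 19. C4a was among them, with 1256 to 1976 counts in libraries 1, 7, 8 and 9 and 19 to 51 in the others.

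A handful of transcripts held most of the signal. Per kilobase of exon and averaged over the 12 libraries, Gm42418 stood at 2714 CPM, Malat1 at 1100 CPM, Neat1 at 189 CPM, BC024386 at 155 CPM and Xist at 104 CPM. Gm42418 lies on chromosome 17 in a stretch that also holds the ribosomal RNA precursor Rn45s, and the libraries were depleted of ribosomal RNA. The members together took 1.55% (library 3) to 3.62% (library 8) of all counts. Without Malat1, Gm42418, Neat1 and Xist, the other 198 members took 0.219%, 0.261% and 0.277% in libraries 10, 11 and 12, the lowest 3 values of the series, and 0.328% to 0.489% in the other 9, library 9 of the same temperature included (0.405%). Libraries 10, 11 and 12 were also the 3 deepest, and the part of depth in this difference was not tested.

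**Figure D1:**
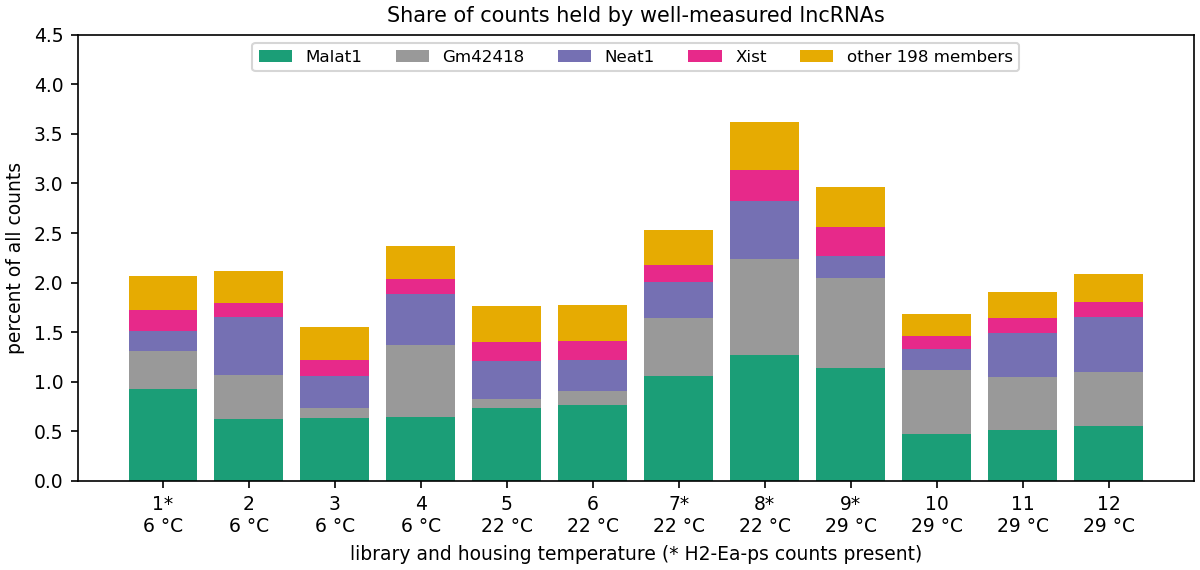
Percent of all counts (y axis) held by Malat1, Gm42418, Neat1, Xist and the other 198 members in each of the 12 libraries (x axis, with housing temperature; asterisks mark libraries with H2-Ea-ps counts). The total runs from 1.55% in library 3 to 3.62% in library 8, and Gm42418 is thin in libraries 3, 5 and 6.

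Malat1, the nuclear speckle transcript (ENSMUSG00000092341.3, chromosome 19, 5795690 to 5802672, minus strand), had the highest mean level over the 12 libraries, although Gm42418 exceeded it in libraries 4, 10 and 11 and Neat1 in library 12. Its level was 8841, 6347, 6692 and 6758 CPM at 6 °C, 8170, 7992, 9995 and 11738 CPM at 22 °C, and 9948, 4977, 4860 and 5894 CPM at 29 °C. The 3 temperatures overlapped, and the high value at 29 °C was library 9. No comparison of Malat1 passed: its log2 fold change was -0.16 (SE 0.25, adjusted p = 0.786) for 29 °C against 6 °C and -0.56 (SE 0.25, adjusted p = 0.322) for 29 °C against 22 °C. Neat1, the architectural RNA of paraspeckles, stood at 4153 ± 1828, 4070 ± 969 and 3577 ± 1850 CPM at 6, 22 and 29 °C. Its spread within a temperature exceeded the differences between them, with 1929 CPM in library 1 beside 5870 CPM in library 2. Xist, the RNA that coats the inactive X chromosome, stood at 1673 ± 221, 2171 ± 506 and 1747 ± 498 CPM, again with overlapping groups.

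Between 29 °C and 6 °C, the ends of the temperature range, 8 of the 202 members were called, which is 3.96% beside 2.53% of all genes tested. Hectd2os was higher at 29 °C (1 member, beside 1.13% of all genes), and 0610005C13Rik, Gm15638, BC024386, Gm10644, 1810008I18Rik, 1810019D21Rik and 2810013P06Rik were lower (7 members, beside 1.39% of all genes). The 4 libraries of each temperature did not overlap for 35 members (17.3%), beside 13.3% of all genes, and only 6 of these 35 were higher at 29 °C. At an unadjusted p under 0.05 there were 50 members (24.8%), beside 19.4% of all genes.

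Hectd2os (ENSMUSG00000087579.7) is an antisense transcript that runs across the ubiquitin ligase gene Hectd2 on chromosome 19, from 36614052 to 36705641 on the minus strand. Its level was 5.40, 7.58, 5.88 and 4.27 CPM at 6 °C. It was 31.0, 19.05, 19.6 and 27.6 CPM at 22 °C and 27.6, 36.9, 22.6 and 34.8 CPM at 29 °C. Every library at 6 °C lay below every library at the other temperatures, while 22 °C and 29 °C overlapped. Hectd2os was higher at 29 °C than at 6 °C, with a log2 fold change of 2.41 ± 0.23 (SE; adjusted p = 0.000386), and lower at 6 °C than at 22 °C, with -2.08 ± 0.23 (SE; adjusted p = 0.00319). The difference between 29 °C and 22 °C was 0.33 (SE 0.22, adjusted p = 0.496). Both calls held under all 23 alternative fits, with log2 fold changes of 2.29 to 2.55 and of -2.23 to -1.94.

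The genes around Hectd2os did not all share this pattern. Hectd2 itself, whose exons overlap Hectd2os on the opposite strand, stood at 5.03 ± 0.668, 4.40 ± 1.35 and 5.22 ± 0.774 CPM at 6, 22 and 29 °C (29 °C against 6 °C: log2 fold change 0.06, adjusted p = 0.933). The coding gene whose start lies nearest, 31012 bases away, is Ppp1r3c, which targets protein phosphatase to glycogen. Ppp1r3c stood at 34.6 ± 20.1, 95.6 ± 52.8 and 110 ± 50.7 CPM, with overlapping groups, and was not called between 29 °C and 6 °C (log2 fold change 1.67, adjusted p = 0.191). With the H2-Ea-ps covariate its adjusted p was 0.00281.

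The RefSeq promoter window of Hectd2os is shown because this transcript had the largest fold change of the set. The 300 bases, 250 before to 50 after the start in RefSeq (GRCm38.p6, chr19:36689430-36689729, minus strand), lie inside the longer GENCODE gene. The window was searched on both strands for 5 motifs, which would be in capitals: the TATA box TATAAA, the CCAAT box CCAAT, the GC box GGGCGG, the E-box CACGTG and the cyclic AMP response element TGACGTCA.
Hectd2os: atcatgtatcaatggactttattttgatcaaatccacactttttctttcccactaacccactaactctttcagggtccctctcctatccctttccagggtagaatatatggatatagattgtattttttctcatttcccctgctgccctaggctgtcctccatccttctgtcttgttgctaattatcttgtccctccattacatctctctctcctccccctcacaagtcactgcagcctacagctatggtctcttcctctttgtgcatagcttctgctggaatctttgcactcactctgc
None of the 5 letter strings occurs in this window. In the 105 member windows that RefSeq gave, TATAAA occurred in 15.2%, CCAAT in 40%, GGGCGG in 39%, CACGTG in 13.3% and TGACGTCA in 1.9%. In all 32851 windows of this length the shares were 13.6%, 37.4%, 35.7%, 7.15% and 1.79%.

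The other 7 called members were lower in warm-housed mice. The most abundant was BC024386 (ENSMUSG00000109628.1, chromosome 7, 140906014 to 140907983, plus strand), a processed transcript that overlaps no coding gene. Its level was 303, 316, 334 and 307 CPM at 6 °C, 334, 331, 207 and 346 CPM at 22 °C, and 184, 128, 133 and 197 CPM at 29 °C. The 29 °C libraries all lay below the others, and library 7 was low within its temperature. The log2 fold change of BC024386 between 29 °C and 6 °C was -0.97 (SE 0.19, adjusted p = 0.0248).

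A second abundant transcript, 0610005C13Rik (ENSMUSG00000109644.1, chromosome 7, 45567794 to 45575327, minus strand), lies antisense to Bcat2, the mitochondrial branched-chain aminotransferase, and overlaps its exons. Its level was 128, 121, 140 and 143 CPM at 6 °C, 95.8, 89.3, 80.1 and 99.2 CPM at 22 °C, and 84.2, 60.4, 67.1 and 89.9 CPM at 29 °C. The 6 °C libraries stood above all others, and the other 2 temperatures overlapped. The fall from 6 °C to 29 °C was -0.82 (SE 0.15, adjusted p = 0.0191). Bcat2 lay at 16.6 to 34.8 CPM at 6 °C and at 17.6 to 21.2 CPM at 29 °C and was not called (log2 fold change -0.48, adjusted p = 0.195).

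Gm15638 and Gm10644 were lower at 29 °C than at both cooler temperatures by their values, although only the comparison with 6 °C was called. Gm15638 (ENSMUSG00000085826.1, chromosome 16, 45945606 to 45971370, plus strand) runs antisense across Phldb2 and Plcxd2 without overlapping their exons. It had 7.13, 6.65, 6.12 and 5.19 CPM at 6 °C, 7.01, 4.58, 4.79 and 3.58 CPM at 22 °C, and 3.16, 2.16, 2.26 and 2.03 CPM at 29 °C. The 29 °C libraries did not overlap the others, and the log2 fold change against 6 °C was -1.38 (SE 0.26, adjusted p = 0.0215). Plcxd2, a member of the phospholipase C X-domain family, was called in the same direction, at 156 ± 10.9, 144 ± 22.8 and 89.1 ± 10.2 CPM (log2 fold change -0.81, adjusted p = 0.0197). Gm10644 (ENSMUSG00000074219.3), which had no match in vM21, stood at 6.34, 7.84, 5.24 and 8.11 CPM at 6 °C, 6.00, 5.19, 6.19 and 7.69 CPM at 22 °C, and 4.24, 1.14, 2.26 and 1.36 CPM at 29 °C. Its lowest libraries, 10 and 12, held 20 counts each, the minimum for membership, and its log2 fold change against 6 °C was -1.62 (SE 0.36, adjusted p = 0.0368).

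The remaining 3 called members were 1810008I18Rik, 1810019D21Rik and 2810013P06Rik. 1810008I18Rik (chromosome 7, 65803111 to 65806449, plus strand), which is intergenic, fell from 68.0 ± 12.4 CPM at 6 °C to 28.5 ± 8.23 CPM at 29 °C (SE 0.28, log2 fold change -1.26, adjusted p = 0.0372), with 51.0 ± 18.9 CPM at 22 °C. 1810019D21Rik (chromosome 8, 106135400 to 106138525, plus strand) overlaps exons of Esrp2, an epithelial splicing regulator, on the opposite strand. It stood at 37.6 ± 13.5, 18.6 ± 7.13 and 11.1 ± 5.31 CPM, with 19.7 CPM in library 1 close to the highest 29 °C value of 16.3 CPM (log2 fold change -1.76, SE 0.40, adjusted p = 0.0405). Esrp2 was not called, at 103 ± 17.3, 90.5 ± 11.5 and 93.9 ± 18.9 CPM (log2 fold change -0.14, adjusted p = 0.705).

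2810013P06Rik (chromosome 8, 123042466 to 123044602, plus strand) starts 189 bases from the start of Ankrd11, a chromatin regulator transcribed the other way. It also lies within a gene typed as coding on its own strand, Gm20388, whose unspliced reads cannot be told apart from it. Its level was 7.78, 7.18, 9.06 and 8.70 CPM at 6 °C, 5.35, 3.26, 4.73 and 7.91 CPM at 22 °C, and 3.78, 3.13, 3.92 and 4.47 CPM at 29 °C. The ends of the range did not overlap, with 22 °C spread across both, and the log2 fold change was -1.10 (SE 0.26, adjusted p = 0.0443). Ankrd11 was not called, at 120 ± 4.98, 136 ± 8.64 and 142 ± 4.67 CPM (log2 fold change 0.24, adjusted p = 0.249). The RefSeq promoter window of 2810013P06Rik (GRCm38.p6, chr8:123042325-123042624, plus strand) is shown as that of the only called member typed as arising from a bidirectional promoter; the annotated start of Ankrd11 lies outside it. Capitals mark 4 CCAAT boxes, here all read from the opposite strand as ATTGG, and 2 GC boxes, 1 of them on the opposite strand.
2810013P06Rik: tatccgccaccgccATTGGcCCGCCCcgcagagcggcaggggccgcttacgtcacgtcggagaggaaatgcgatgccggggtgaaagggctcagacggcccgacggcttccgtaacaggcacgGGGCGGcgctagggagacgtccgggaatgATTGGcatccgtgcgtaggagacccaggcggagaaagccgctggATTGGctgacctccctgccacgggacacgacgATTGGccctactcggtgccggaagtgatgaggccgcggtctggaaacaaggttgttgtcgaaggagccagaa

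**Figure D2:**
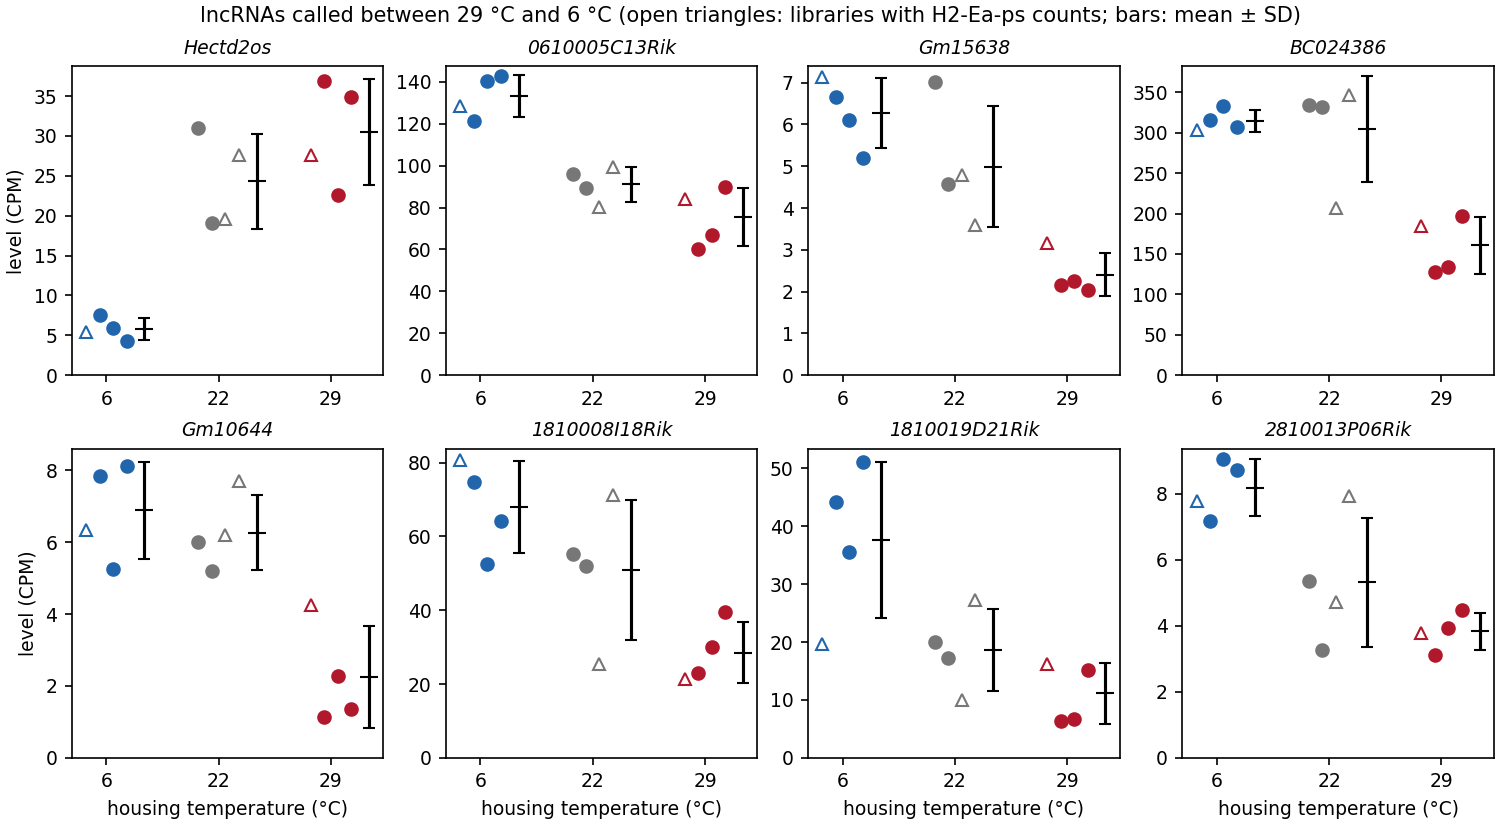
Level in CPM (y axis, linear from 0) of the 8 members called between 29 °C and 6 °C, by housing temperature (x axis); each symbol is 1 library, open triangles are libraries with H2-Ea-ps counts, and bars give the mean ± SD of 4 libraries. Hectd2os is low in all 4 libraries at 6 °C, and the other 7 are low at 29 °C.

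The count of calls depended on single libraries, for members and for all genes. The 8 became 1 without library 3, 4, 10 or 11, where 0.44%, 0.306%, 0.269% and 0.467% of all genes were called, and 4 without library 2 or 12, where 1.66% and 0.977% were. The fold changes moved less, for example -0.92 to -0.73 for 0610005C13Rik over the 23 alternatives. With the H2-Ea-ps covariate, 36 members were called (17.8%, beside 12.6% of all genes), 6 higher at 29 °C (beside 6.32%) and 30 lower (beside 6.23%), and all 8 were among them. Those 36 included Oip5os1 (also known as Cyrano), a cytoplasmic lncRNA that directs the decay of miR-7, at 95.5 ± 19.9, 88.3 ± 8.37 and 70.3 ± 10.4 CPM (adjusted p = 0.144 without the covariate and 0.0161 with it). They also included Gm15998, antisense to the ephrin gene Efna3, which had 17.9, 15.9 and 14.3 CPM in libraries 10, 11 and 12 but 3.86 CPM in library 9.

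Between 29 °C and 22 °C no member and no gene was called by edgeR, a share of 0 in each case. At an unadjusted p under 0.05 there were 59 members (29.2%, beside 14.9% of all genes). DESeq2 called 14 members, beside 2.17% of all genes it tested, and limma voom 4, beside 0.287%. The members as a set nevertheless sat lower at 29 °C: 154 of 202 had a negative log2 fold change (76.2%, beside 50.4% of all genes), and their median was -0.33, beside -0.00 for all genes. Protein-coding genes that met the same minimum count (10220) had a median of 0.01, with 49.2% negative. Groups did not overlap for 29 members (14.4%), beside 7.68% of all genes, and 3 of the 29 were higher at 29 °C.

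Markers of some cell types leaned one way in the same comparison and those of others did not. None was called without the covariate, and 1 Kupffer cell and 1 erythroid marker were called with it. Of 8 Kupffer cell markers 7 were higher at 29 °C (median log2 fold change 0.64, summed level 481 to 1023 CPM at 29 °C beside 307 to 827 CPM at 22 °C). All 5 erythroid markers were higher (median 1.22, 99.2 to 380.0 CPM beside 58.4 to 115 CPM). By fold change 3 of 4 cholangiocyte markers were higher (median 1.22), but their summed level stood out in library 11 alone. It was 40.4 CPM there and at most 16.8 CPM in the other libraries at 29 °C, beside up to 17.1 CPM at 22 °C. These markers were also low, with a median of 2.38 CPM over their mean levels. The 5 hepatocyte markers were all lower by a small amount (median -0.08). Of 6 endothelial markers 2 were lower (median 0.03), and of 5 stellate cell markers 3 were lower (median -0.12). Of 5 neutrophil markers 1 was lower (median 0.30). For 29 °C against 6 °C, all 8 Kupffer cell, 6 endothelial, 5 stellate cell, 5 neutrophil and 5 erythroid markers were higher. Their medians were 0.62, 0.24, 0.20, 1.33 and 1.10. Lower were 1 of 4 cholangiocyte and 3 of 5 hepatocyte markers (medians 0.72 and -0.05). None of these was called without the covariate. With it 1 endothelial, 1 neutrophil and 1 erythroid marker were called higher and 1 hepatocyte marker lower (beside 6.32% and 6.23%). The part of cell type content in the members' shifts and calls was not tested.

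By position, the median for 29 °C against 22 °C was -0.37 for members on the strand of a coding gene and -0.32 for those opposite to one. It was -0.36 for those with no coding neighbour. Of lncRNAs tested that were not members, 65.3% were negative. The median was -0.31 for the 133 lncRNAs with at least 2.63 CPM in every library, a minimum that does not move with depth, and -0.37 for the 88 with at least 50 counts. Over 23 alternatives the median ran from -0.45 (only libraries with no H2-Ea-ps counts) to -0.26 (without library 10). In the other comparisons the members' median was -0.14 (29 °C against 6 °C) and -0.19 (6 °C against 22 °C). Without library 9 the first was -0.24 and without library 10 it was -0.05. The position classes differed more in these comparisons. For 29 °C against 6 °C the median was 0.004 for same-strand members (50% negative) and -0.25 for opposite-strand members. It was -0.16 for those with no coding neighbour. For 6 °C against 22 °C the medians, in the same order, were -0.38 (81.5% negative), -0.01 and -0.15. These 3 comparisons share libraries, so the medians are not independent.

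**Figure D3:**
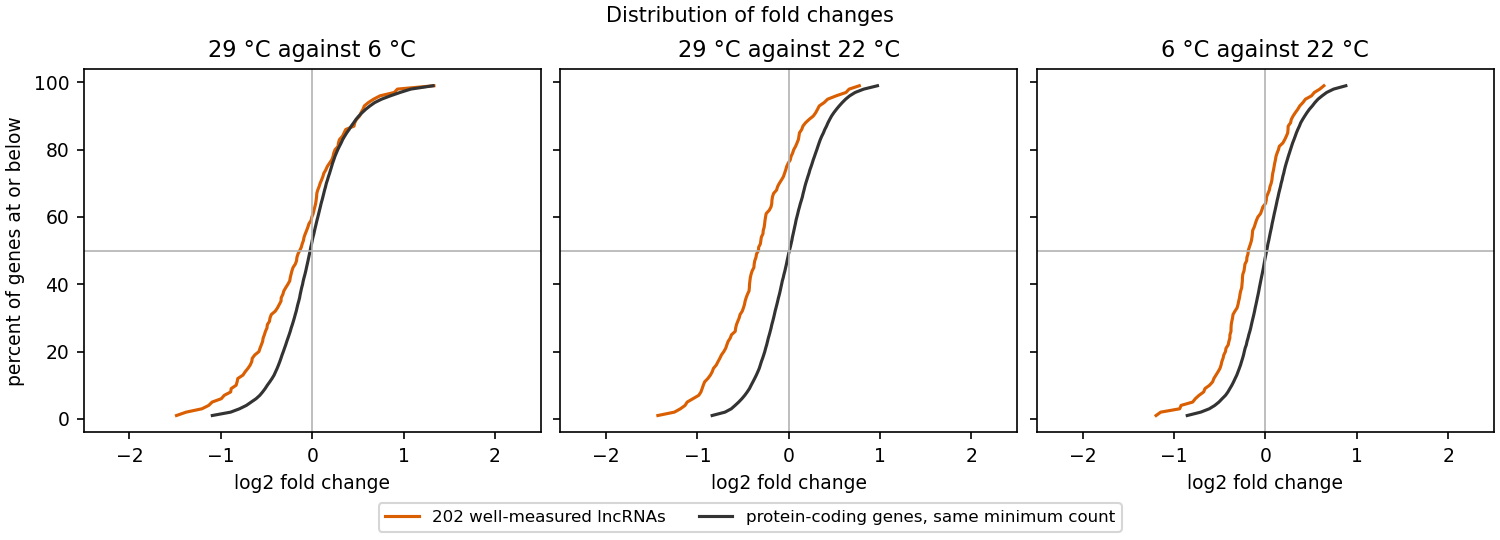
Percent of genes (y axis) with a log2 fold change at or below the value on the x axis, for the 202 members (orange) and for protein-coding genes with the same minimum count (black), in each of the 3 comparisons. At the 50% line the orange curve lies to the left in each panel, and the curves cross near the top for 29 °C against 6 °C. For 29 °C against 22 °C it crosses the 50% line at -0.33 and the black curve near 0.01.

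With the H2-Ea-ps covariate, 19 members were called between 29 °C and 22 °C (9.41%, beside 3.44% of all genes), 2 higher (beside 1.56%) and 17 lower (beside 1.88%). Of these, 10 were also called between 29 °C and 6 °C with the covariate, BC024386, Gm10644 and Gm15638 among them. The lowest adjusted p was that of Gm43189 (ENSMUSG00000105909.1), a sense intronic transcript that was singled out after its values were seen. Its level was 27.8, 33.9, 41.7 and 34.4 CPM at 6 °C, 86.7, 85.0, 39.5 and 94.3 CPM at 22 °C, and 29.6, 27.0, 37.0 and 35.8 CPM at 29 °C. Libraries 5, 6 and 8 stood well above the rest, and library 7 of the same temperature did not. With the covariate the log2 fold change was -1.31 for 29 °C against 22 °C (adjusted p = 0.0182) and -1.22 for 6 °C against 22 °C (adjusted p = 0.0291); without it neither passed (adjusted p = 0.134 and 0.163).

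In a fit of only the 8 libraries at 0 for H2-Ea-ps (3 at 29 °C and 2 at 22 °C), 53 members were called, beside 17.1% of all genes. C730036E19Rik, an intergenic transcript on chromosome 1, had the largest fall between 22 °C and 29 °C in the fit without the covariate, from 27.3, 15.8, 17.9 and 23.9 CPM to 9.80, 4.49, 8.10 and 3.66 CPM. The groups did not overlap, and its log2 fold change of -1.70 (SE 0.43) did not pass (adjusted p = 0.163, and 0.0403 with the covariate).

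Between 6 °C and 22 °C, Hectd2os was the only member called, 1 of 202 beside 0.0333% of all genes. With the covariate 4 members were called, beside 0.367%: Hectd2os, Gm43189, Gm36041 and 4833411C07Rik, all lower at 6 °C. Gm36041, an intergenic transcript on chromosome 10, stood at 2.02, 12.2, 7.07 and 8.53 CPM at 6 °C and at 23.0, 18.9, 9.13 and 16.6 CPM at 22 °C (log2 fold change -1.62 and adjusted p = 0.0317 with the covariate, -1.20 and 0.335 without). Groups did not overlap for 14 members (6.93%), beside 6.33% of all genes, and the imprinted antisense RNA Kcnq1ot1 was among them. It had 221, 180, 164 and 177 CPM at 6 °C and 260, 261, 231 and 272 CPM at 22 °C, a difference that was not called (log2 fold change -0.46, SE 0.17, adjusted p = 0.32).

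Set against presence of H2-Ea-ps counts, 7 members (3.47%) did not overlap between the 4 libraries with and the 8 without, beside 9.38% of all genes. Since the data and not the labels set the 4 apart, no test was run. Malat1 was higher in the 4, at a median of 9972 CPM (8841 to 11738) beside 6519 CPM (4860 to 8170). F630028O10Rik, Gm37494, 9230112E08Rik and Gm29488 were also higher in all 4 (5 members in all, beside 4.6% of all genes). Gm37494, an intergenic transcript on chromosome 7, had a median of 101 CPM (82.3 to 116) beside 54.1 CPM (36.4 to 70.3). 9230112E08Rik shares strand and exons with the collagen gene Col20a1, whose libraries also did not overlap, so their reads cannot be told apart. Both members that were lower in the 4 (beside 4.78%) were C730027H18Rik and 2900097C17Rik, the mouse Norad RNA that binds Pumilio proteins, at a median of 12.7 CPM (10.5 to 16.4) beside 22.1 CPM (16.8 to 28.5).

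F630028O10Rik (ENSMUSG00000078122.4, chromosome X, 96239926 to 96243636, plus strand) varied most across the 12 libraries, 19 times between lowest and highest. It spans miR-223, a microRNA abundant in neutrophils and other myeloid cells. Its level was 51.3, 22.3, 17.9 and 7.53 CPM at 6 °C, 24.3, 26.5, 107 and 79.6 CPM at 22 °C, and 143, 34.2, 45.8 and 28.2 CPM at 29 °C. Within each temperature the libraries with H2-Ea-ps counts were the highest. The 5 neutrophil markers (S100a8, S100a9, Csf3r, Cxcr2 and Ly6g) all passed the filter and summed to 430 to 989 CPM in the 4 libraries with H2-Ea-ps counts and to 22.5 to 340 CPM in the other 8. Library 4 was lowest and library 9 highest for both the transcript and the markers. In whole tissue, fewer cells of a type and less RNA per cell cannot be told apart, and the part of neutrophil content in the level of F630028O10Rik was not tested. Without the covariate F630028O10Rik was not called between 29 °C and 6 °C (log2 fold change 1.33, SE 0.74, adjusted p = 0.353); with it the adjusted p was 0.00778.

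**Figure D4:**
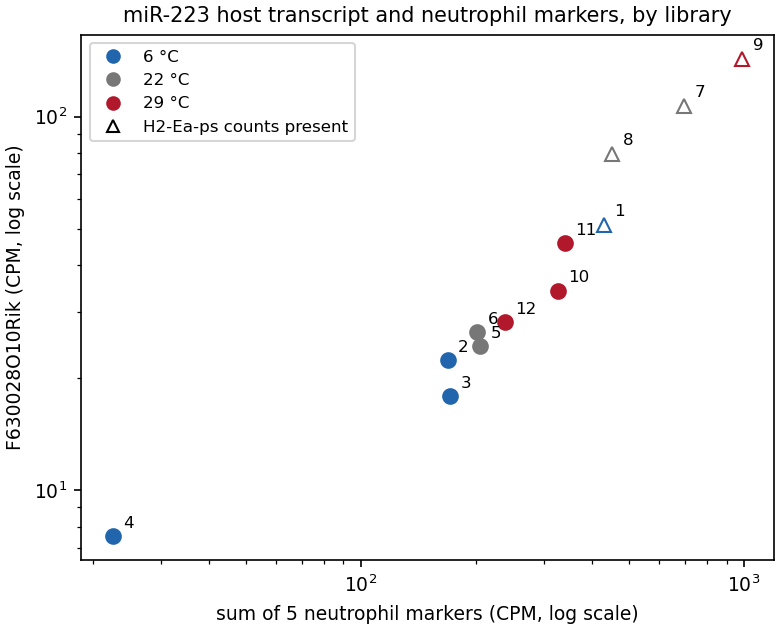
Level of F630028O10Rik (y axis, CPM, log scale) against the summed level of 5 neutrophil markers (x axis, CPM, log scale), 1 point per library with its number; colours give housing temperature and open triangles libraries with H2-Ea-ps counts. Library 4 lies lowest (7.53 CPM beside 22.5 CPM of markers) and library 9 highest (143 CPM beside 989 CPM).

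Mature microRNAs were sought in the members on every chromosome but 18, which holds 1 member, Gm29966. Elsewhere 12 members span 48 different mature microRNAs on their own strand, by RefSeq positions in GRCm38.p6. The host transcript was counted here, and the mature microRNAs were not analysed. Their sequences are shown with the seed, bases 2 to 8, in capitals, because the seed sets which messages a microRNA pairs with and groups hosts that lie on different chromosomes.
mmu-let-7a-5p, in 6720427I07Rik: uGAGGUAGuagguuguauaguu
mmu-let-7c-5p, in Lncppara and Mir99ahg: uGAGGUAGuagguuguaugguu
mmu-miR-125b-5p, in Mir100hg and Mir99ahg: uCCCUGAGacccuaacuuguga
mmu-miR-100-5p, in Mir100hg: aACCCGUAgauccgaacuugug
mmu-miR-99a-5p, in Mir99ahg: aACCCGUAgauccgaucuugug
mmu-miR-29b-3p, in A330023F24Rik: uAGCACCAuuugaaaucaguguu
mmu-miR-29c-3p, in A330023F24Rik: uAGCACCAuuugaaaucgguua
mmu-miR-15a-5p, in Dleu2: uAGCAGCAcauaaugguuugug
mmu-miR-16-5p, in Dleu2: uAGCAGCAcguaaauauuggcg
mmu-miR-17-5p, in Mir17hg: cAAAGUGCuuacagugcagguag
mmu-miR-22-3p, in Mir22hg: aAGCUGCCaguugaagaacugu
mmu-miR-223-3p, in F630028O10Rik: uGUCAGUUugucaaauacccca

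Seed GAGGUAG, that of the let-7 family, was thus carried by 3 members, and ACCCGUA and CCCUGAG by the same pair, Mir100hg and Mir99ahg. None of the 12 hosts was called by edgeR in any comparison. At an unadjusted p under 0.05 there were 1, 3 and 0 hosts for 29 °C against 6 °C, 29 °C against 22 °C and 6 °C against 22 °C. The shares of all genes were 19.4%, 14.9% and 11.9%. With the covariate 1 host was called, F630028O10Rik between 29 °C and 6 °C, beside 12.6% of all genes. The hosts' median log2 fold change was -0.24 for 29 °C against 6 °C (10 of 12 negative), -0.41 for 29 °C against 22 °C (9 negative) and -0.22 for 6 °C against 22 °C (10 negative). Of all genes, 49.9%, 50.4% and 52.5% were negative. Of the 202 members, to which the hosts belong, 60.4%, 76.2% and 63.9% were negative. A330023F24Rik, the miR-29b and miR-29c host, had 41.4, 47.3, 46.9 and 50.8 CPM at 6 °C, 63.3, 52.9, 46.7 and 63.5 CPM at 22 °C, and 45.9, 29.2, 38.4 and 45.5 CPM at 29 °C. All 4 libraries at 29 °C lay below those at 22 °C, with library 9 (45.9 CPM) just under library 7 (46.7 CPM), and the adjusted p was 0.209. Mir22hg ran with 27.8, 27.2, 17.5 and 27.0 CPM at 6 °C, 9.78, 12.3, 22.0 and 28.3 CPM at 22 °C, and 18.3, 22.0, 22.6 and 28.7 CPM at 29 °C. Tlcd2, which encodes a TLC domain membrane protein and overlaps it on the same strand, was called where Mir22hg was not, at 66.6 ± 12.9, 36.9 ± 5.64 and 25.1 ± 8.16 CPM (29 °C against 6 °C: log2 fold change -1.41, adjusted p = 0.0133).

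The groups of lncRNAs with a known role were small, and their counts are read beside the 2.53% of all genes called between 29 °C and 6 °C and the 19.4% at an unadjusted p under 0.05. Among members, 5 were hosts of small nucleolar RNAs (Gas5, Snhg1, Snhg6, Snhg12 and Snhg17), and none of them was called between 29 °C and 6 °C, with 1 at an unadjusted p under 0.05. Their median log2 fold change was 0.29. Gas5, the most abundant, stood at 23.5 ± 5.26, 30.7 ± 3.62 and 28.7 ± 11.1 CPM. Snhg1 had the largest fold change of these (0.67, SE 0.28, adjusted p = 0.206, and 0.0763 with the covariate). None of the 5 nuclear architectural members (Malat1, Neat1, Kcnq1ot1, Tug1 and Firre) was called, with 0 at an unadjusted p under 0.05 and a median of -0.15. None of the 3 X-inactivation members (Xist, Jpx and Ftx) was called either, with 0 at that p and a median of -0.09. The 3 imprinted members were Kcnq1ot1, Peg13 and Airn. Airn, the antisense RNA that silences Igf2r on the paternal chromosome, had 4.10, 2.79, 3.02 and 1.92 CPM at 6 °C and 5.40, 5.40, 4.58 and 4.81 CPM at 29 °C. Its groups did not overlap, but it was not called (log2 fold change 0.76, SE 0.26, adjusted p = 0.13).

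The protein partners of these RNAs were counted from lists of their own. None of 16 paraspeckle proteins, 15 nuclear speckle proteins, 16 proteins of small nucleolar RNA particles and ribosomal RNA processing, 14 nonsense-mediated decay factors and 18 genes of the nuclear exosome and its adaptors was called by edgeR between 29 °C and 6 °C. At an unadjusted p under 0.05 the counts were 1, 2, 3, 0 and 2. Their medians were 0.02, 0.20, 0.19, -0.01 and 0.02. With the covariate the counts were 1, 2, 2, 0 and 0, all higher at 29 °C, beside 6.32% of all genes called higher in that fit. Without the covariate 2.53% of all genes were called, so a count of 0 in lists of this size is near the background. The paraspeckle protein Pspc1, at 14.1, 20.6 and 22.3 CPM on average at 6, 22 and 29 °C, was 1 of these (adjusted p = 0.0068 with the covariate and 0.0709 without). Nop56 and Nop58, core proteins of box C/D particles, were the 2 of the third list, with adjusted p = 0.00364 and 0.00887 with the covariate and 0.102 and 0.0532 without.

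The coding neighbours of members, those that overlap one or whose start lies nearest, came to 196 genes around 170 members, and 7 of them were called between 29 °C and 6 °C (3.57%, beside 2.53% of all genes). Besides Plcxd2 and Tlcd2 these were N4bp2l1 (nearest to Gm43597), Foxn3 (around Gm20682), Ulk2 (nearest to A530017D24Rik), Ubash3b (nearest to Mir100hg) and Tbx3 (opposite to Tbx3os1). Only Plcxd2 lay beside a member that was itself called. Tbx3, a T-box transcription factor, rose from 47.7 ± 6.42 CPM at 6 °C to 101 ± 40.9 CPM at 29 °C (log2 fold change 1.08, adjusted p = 0.0276), with 161 CPM in library 12. Its divergent partner Tbx3os1 had 3.93 to 9.45 CPM at 6 °C and 5.17 to 7.73 CPM at 29 °C (log2 fold change 0.04, adjusted p = 0.956).

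The members differed widely in how steady they were. Across 12 libraries the ratio of highest to lowest level had a median of 2.86, beside 2.47 for all genes tested and 2.06 for protein-coding genes with the same minimum count. These sets were not matched on level. Their median mean levels were 6.83, 12.5 and 25.2 CPM, and the part of level in the ratios was not tested. The ratio was under 2 for 19 members and at least 4 for 40. The steadiest by SD of log2 levels were Brip1os, D130062J10Rik and 5530601H04Rik, with ratios of 1.5, 1.6 and 1.65. Brip1os, antisense to Med13 and Ints2, stayed between 21.1 and 31.7 CPM. The least steady were F630028O10Rik, Gm42418 and Hectd2os. Gm42418 had 1077 CPM in library 3, 928 in library 5 and 1456 in library 6, and 3707 to 8914 CPM elsewhere. The excluded Gm26917 was low in the same 3 libraries, at 0.605% to 1.66% of counts, beside 4.03% to 8.70% in the other 9.

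**Figure D5:**
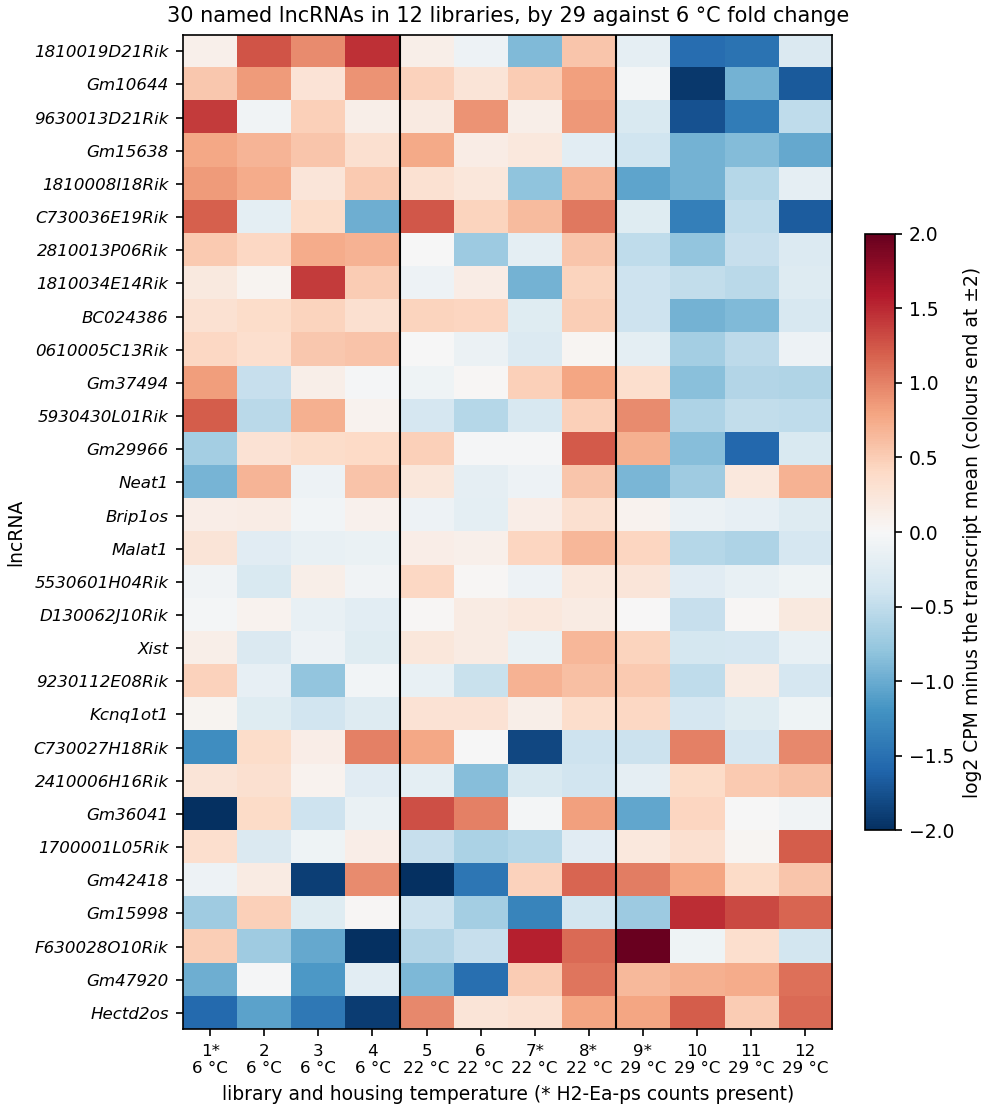
Log2 CPM minus the transcript's mean over 12 libraries (colour, limits at -2 and 2) for 30 named members (lines, by fold change between 29 °C and 6 °C) in the 12 libraries (columns, with temperature; asterisks mark H2-Ea-ps counts). At the bottom, Hectd2os is blue in all 4 libraries at 6 °C, and most transcripts near the top are blue in libraries 10 to 12.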

How the data were processed

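Liver RNA depleted of ribosomal RNA was sequenced from tumour-bearing mice in 12 libraries, per the labels. The authors deposited raw counts per gene, not normalized, in 1 table; per the submitters' processing notes bcl2fastq, STAR 2.6.1a, DESeq2 1.44.0 and GRCm38 were used, with no role or order. For the step from alignments to counts, neither the program nor any strand setting is stated there.

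The deposited counts went into edgeR 4.0.16 (R 4.3.3) without change. Library sizes were scaled by TMM, low genes were removed by filterByExpr with the groups, and a robust quasi-likelihood model was fitted to all 12 libraries with 3 group means (9 residual degrees of freedom) and Benjamini-Hochberg adjustment over 15006 genes at a threshold of 0.05. The fit was tested on simulated data. Alternatives were a term for at least 1 CPM of H2-Ea-ps, other scalings and filters, DESeq2 1.42.0, limma voom (3.58.1) with quality weights, fewer libraries, leaving out each library, and other minimum counts. A minimum CPM for membership was added after seeing the data. Total counts, 7615585 to 19001126, limit the precision of a count within a library, and intervals are not given for single counts. The SE of a fold change also reflects spread among libraries.

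The members and the gene lists were chosen with earlier results of these data known. Named members were Hectd2os, Malat1, the 8 with the highest mean, all called, the 3 largest fold changes in each direction per comparison, the 5 widest gaps by H2-Ea-ps and the 3 steadiest (30 in all); list members and coding neighbours were named by lowest p. Mirt1 and Mirt2, which are not microRNA hosts, were taken off that list. Promoters and microRNAs are from RefSeq (GRCm38.p6), and microRNAs on chromosome 18 were left out of the search. Windows were found for 105 of 202 members.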

Additional observations from a re-analysis of the deposited data

Results flagged for a closer look

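In 90 groups of 4 libraries (30 named members at 3 temperatures), 4 held a library far from the others, by the gap to its nearest neighbour as a share of the group's range of log2 levels (above Dixon's critical value); chance alone marks about 1 group in 20. For 5930430L01Rik, library 9 was high at 29 °C (10.8 CPM beside 3.64 to 3.97 CPM, share 0.919). For BC024386, library 7 was low at 22 °C (207 CPM beside 331 to 346 CPM, share 0.915). For Gm29966, library 1 was low at 6 °C (245 CPM beside 482 to 517 CPM, share 0.905). For Gm15998, library 9 was low at 29 °C (3.86 CPM beside 14.3 to 17.9 CPM, share 0.855). The libraries concerned, 1, 7 and 9 (library 9 for 2 members), are 3 of the 4 with H2-Ea-ps counts, and what sets them apart was not tested.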

How the results depend on the processing

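No paired analysis was possible because each library has a number of its own. Hectd2os was called under all 23 alternatives; the other 7 calls of 29 °C against 6 °C kept their direction in every alternative and were lost in 4 to 10 of them, mostly without library 3, 4, 10 or 11. The count of members called (8 for 29 °C against 6 °C, 0 for 29 °C against 22 °C, 1 for 6 °C against 22 °C) became 36, 19 and 4 with the H2-Ea-ps term, 22, 6 and 4 with that term without replicate 11, 28, 53 and 8 in the 8 libraries at 0 for H2-Ea-ps, and 25, 14 and 4 with DESeq2. With limma voom the first 2 counts were 26 and 4. All genes called under these fits came to 12.6%, 3.44% and 0.367% (term), 8.58%, 0.657% and 0.237% (term without replicate 11), 9.91%, 17.1% and 6.69% (libraries at 0), 7.96%, 2.17% and 1.41% (DESeq2) and, for voom, 7.4% and 0.287%. Without a low-count filter the second was 1, and among the 88 members with at least 50 counts the first was 5. Leaving out each library gave 1 to 11, 0 to 4 and 1 to 2. Other scalings, a stricter filter and the 8 libraries of the 2 groups changed no count by over 1.5 times. The 7 members that did not overlap by H2-Ea-ps counts became 13 with library totals in place of TMM and 7 to 13 with each library left out. The share of all genes was not computed under these settings, and leaving out a library loosens the rule for every gene. This rise is therefore not read as a result about the members. The mean share of counts held by the members was 2.20%, and 2.40% of counts without Gm26917 and mitochondrial genes. The cause of these differences was not tested, and members near 20 counts are limited by depth.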
